A study of Citrus maxima with 12 samples.

Results

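In fruit of 3 pomelo cultivars, 53 genes stood far higher in diseased Jinlan and in diseased Jinsha than in 5 of the 6 Taoxi libraries, diseased and control. They are 53 of the 32863 gene IDs measured. They were chosen by their own values, in FPKM (a count of sequenced fragments corrected for gene length and library size, so that different genes can be set side by side). An ID starting with Cg was taken when log2 of the group mean FPKM plus 1 was higher by at least 2.5 in diseased Jinlan than in diseased Taoxi, and also by at least 2.5 in diseased Jinsha than in diseased Taoxi. In addition the diseased and control Taoxi means had to lie within 0.8 of each other on that scale, and both had to reach 0.5 FPKM. All the differences from Taoxi below are therefore descriptions of what the choice used, and no test is drawn from them.

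The series concerns black spot disease of Jinggang honey pomelo, a citrus fruit, and set infected against uninfected fruit 13 days after infection with the pathogen that the series text calls D. citri. RNA of whole fruit tissue of Citrus maxima was sequenced in 4 groups of 3 libraries, namely diseased Jinlan, diseased Jinsha, diseased Taoxi and Taoxi control. No control group of Jinlan or Jinsha is used here, so cultivar and response to infection cannot be told apart in any difference of Jinlan or Jinsha from Taoxi. Nothing in the labels says that the libraries of a group are separate fruits or trees. The p-values thus measure only the spread between these libraries, which may be technical. In RNA of a whole tissue, fewer cells of a type and less RNA per cell cannot be told apart. The file pairs its IDs with no gene names or descriptions, so what each gene does is not stated, and the tissue label was not checked against marker genes.

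Cultivars of a fruit crop are propagated as clones, so the trees of a cultivar carry nearly the same genome while different cultivars carry different alleles of many genes. A gene's mRNA level in a fruit reflects the transcription and decay of its RNA and the number and kinds of cells in the sample. Infection of a rind by a pathogen is commonly accompanied by changes in defence genes, whereas genes of the kind described here were picked to show little change with infection in Taoxi.

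One library stood apart from the others of its label, as it had in earlier results of these data. Taoxi control 1 lay near diseased Jinlan over the 53 genes, while Taoxi controls 2 and 3 lay near diseased Taoxi. The choice of genes left this library out, and so did the tests below except where a fit with it is named. With it in the control mean the same rule gave 6 genes, of which 2 are among the 53, because diseased Taoxi then differed from control by a median of -1.71 (log2) over the 53 genes, past the limit of 0.8. "Taoxi controls" below means controls 2 and 3 unless control 1 is named.

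Of 30123 IDs starting with Cg, 127 met both differences from diseased Taoxi. Among these, 50 were below 0.5 FPKM in diseased Taoxi or in the controls, and another 24 differed between diseased and control Taoxi by 0.8 or more. The remaining 53 genes were all at 1 FPKM or more in at least 3 libraries and entered the tests, which covered 17421 IDs. The smaller of the 2 differences reached 3 or more in 28 genes and lay below 2.7 in 13. Nearest to the limit inside it was Cg5g024440, with differences of 2.53 for Jinlan and 2.52 for Jinsha. Nearest outside was Cg4g021000, at 3.16 for Jinlan and 2.496 for Jinsha, with means of 240 FPKM in Jinlan, 151 FPKM in Jinsha, 26.0 FPKM in diseased Taoxi and 14.9 FPKM in the Taoxi controls. Between 2.3 and 2.5 stood 21 IDs that met the other criteria, so the limit cuts through a continuous range.

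The summed level of the 53 genes was 2660, 2576 and 2644 FPKM in the diseased Jinlan libraries and 3587, 3852 and 3713 FPKM in diseased Jinsha. It was 200, 197 and 201 FPKM in diseased Taoxi, and 166 and 159 FPKM in Taoxi controls 2 and 3. As a share of all FPKM of a library, this was 0.455% to 0.468% in diseased Jinlan, 0.640% to 0.678% in diseased Jinsha, 0.0346% to 0.0353% in diseased Taoxi and 0.0276% to 0.0290% in the Taoxi controls. The median gene stood above 77.1% of the IDs tested in diseased Jinlan, and above 21.5% of them in diseased Taoxi.

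In each of the 53 genes the lowest of the 6 Jinlan and Jinsha libraries was above the highest of the 5 Taoxi libraries. Over all IDs tested this held for 29.5%, and for the 53 the choice itself fixed it. The lowest library was at least 2 times the highest Taoxi library in all 53 genes and at least 5 times in 47, and the median of this ratio was 8.34. The fold of the diseased Jinlan mean over the diseased Taoxi mean ran from 6.52 to 47.3 with a median of 13.3. For diseased Jinsha over diseased Taoxi the range was 6.55 to 107 and the median 15.8. Limma called all 53 higher in diseased Jinlan (background 44.1% of IDs tested) and all 53 higher in diseased Jinsha (background 37.9%), which the choice of genes entailed.

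**Figure D1:**
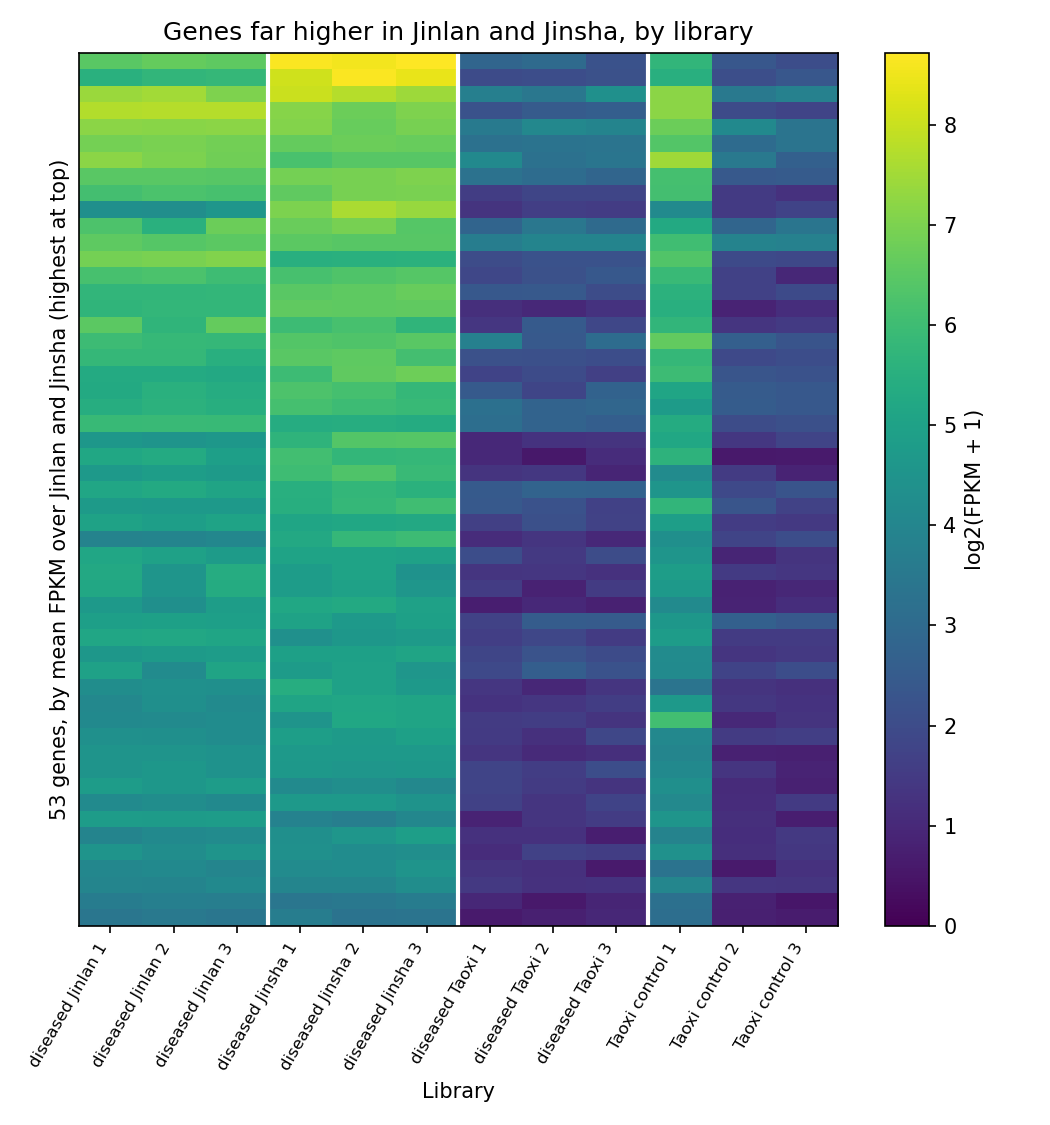
Level of each of the 53 genes (rows) in the 12 libraries (columns) as log2(FPKM + 1), with the gene of the highest mean over Jinlan and Jinsha at the top and white lines between groups. The 6 Jinlan and Jinsha libraries are bright and 5 Taoxi libraries dark in every row, while Taoxi control 1 has values near those of diseased Jinlan.

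By level, Cg9g022880 was the highest over Jinlan and Jinsha, at 89.5, 100.2 and 93.6 FPKM in diseased Jinlan and at 405, 377 and 419 FPKM in diseased Jinsha. It had 6.23, 7.001 and 3.58 FPKM in diseased Taoxi and 4.19 and 3.18 FPKM in Taoxi controls 2 and 3. The lowest Jinlan library was 12.8 times the highest of the 5 Taoxi libraries, and all Jinsha libraries were above all Jinlan libraries. The log2 difference of Jinlan minus Jinsha was -2.07 ± 0.17 (SE, limma adjusted p = 6.16e-06), and it was not called with Taoxi control 1 in the fit (limma adjusted p = 0.0677). The next was Cg2g044400, at 45.1, 52.1 and 54.6 FPKM in diseased Jinlan and 272, 407 and 341 FPKM in diseased Jinsha. In diseased Taoxi it had 2.95, 3.14 and 3.43 FPKM, and in Taoxi controls 2 and 3 it had 3.24 and 4.13 FPKM. Its Jinsha mean was 107 times the diseased Taoxi mean, the largest fold among the 53 genes in either cultivar.

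Cg8g021200 and Cg3g008070 were farthest from diseased Taoxi by the smaller of their 2 differences. Cg8g021200 had 51.1, 53.1 and 53.6 FPKM in diseased Jinlan and 94.1, 91.8 and 96.0 FPKM in diseased Jinsha, against 1.27, 1.03 and 1.44 FPKM in diseased Taoxi and 0.823 and 1.22 FPKM in Taoxi controls 2 and 3. Its lowest Jinlan library was 35.6 times its highest Taoxi library, the widest such gap among the 53, and its replicates lay close together within each cultivar. Cg3g008070 had 207, 211 and 213 FPKM in diseased Jinlan, the highest Jinlan level of the 53, and 138, 107 and 129 FPKM in diseased Jinsha. It had 3.56, 4.64 and 5.15 FPKM in diseased Taoxi and 3.01 and 2.45 FPKM in Taoxi controls 2 and 3. Here the order of the other cultivars was the reverse of that in Cg8g021200, with every Jinlan library above every Jinsha library.

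At the other end were genes that Taoxi fruit also expressed at a clear level. The mean over the 5 Taoxi libraries was below 2 FPKM for 24 genes, from 2 to 5 FPKM for 19 and at 5 FPKM or more for 10. Cg2g015160, the highest in Taoxi, stood at 92.7, 84.6 and 90.4 FPKM in diseased Jinlan and 90.4, 87.4 and 87.5 FPKM in diseased Jinsha. It had 12.1, 14.3 and 14.1 FPKM in diseased Taoxi and 14.0 and 13.1 FPKM in controls 2 and 3. The 6 Jinlan and Jinsha libraries overlapped between the cultivars and all lay well above the Taoxi values. CgUng006030, next in Taoxi, had 147, 142 and 145 FPKM in diseased Jinlan, 136, 103 and 120 FPKM in diseased Jinsha, 10.9, 15.8 and 14.3 FPKM in diseased Taoxi, and 16.7 and 9.14 FPKM in controls 2 and 3.

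**Figure D2:**
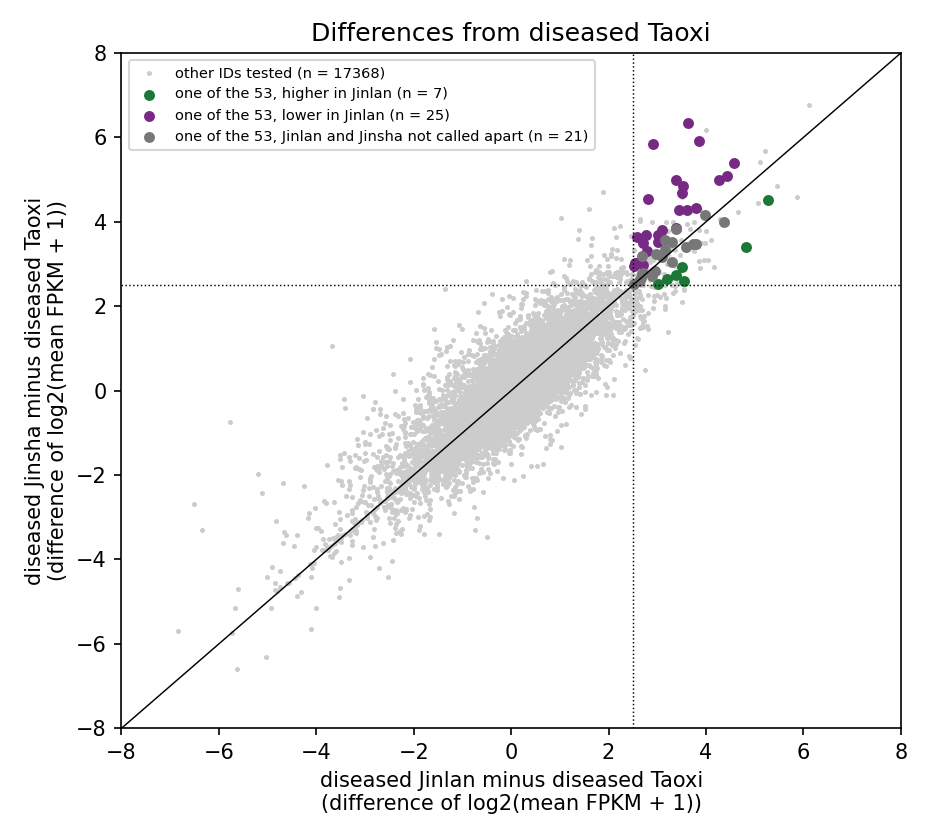
Difference from diseased Taoxi in diseased Jinlan (horizontal) and diseased Jinsha (vertical), both of log2(mean FPKM + 1), for the 53 genes in colour and the other IDs tested in grey, with dotted lines at 2.5 and a diagonal of equal differences. Of the 53 genes, 36 lie above the diagonal, farther from diseased Taoxi in Jinsha than in Jinlan, and both axes share the diseased Taoxi libraries.

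Within Taoxi the choice allowed only small differences, so they are given without a reading. The difference of diseased minus control Taoxi ran from -0.76 to 0.78 (log2) with a median of 0.17, and 22 of the 53 genes lay within 0.2 of 0. The diseased mean was the higher in 38 genes. Limma called 14 of them higher and 1 lower in diseased than in control Taoxi, where 18.8% of all IDs tested were higher and 11.1% lower, in a comparison the choice of genes had limited. These 15 calls were 6 without Taoxi control 3 and 0 in a limma fit with Taoxi control 1 (1 lower and 0 higher at an unadjusted p below 0.05).

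Diseased Jinlan was then compared with diseased Jinsha. The choice set each of them against the same Taoxi libraries by the same limit, so it fixed no direction between them, but it used the values of both, and the counts below are not independent of it. The mean was lower in Jinlan than in Jinsha in 36 of the 53 genes. Limma called 25 of them lower in Jinlan and 7 higher, and 21 did not pass (adjusted p below 0.05, Benjamini-Hochberg over all IDs tested). That is 47.2% lower and 13.2% higher, where over all IDs tested 16% were lower and 33.5% higher in Jinlan. The median difference was -0.42 (log2) over the 53 genes and 0.11 over all IDs tested. By at least 1 log2 unit, 8 were called lower and 1 higher, against 3.39% and 1.76% of all IDs tested. The libraries did not overlap in 29 genes lower in Jinlan (20.3% of all IDs tested) and 9 genes higher in Jinlan (41.4%). In a fit with all 12 libraries, Taoxi control 1 included, 3 genes were called lower (Cg2g044400, Cg2g044410 and Cg7g006420) and 0 higher by limma (4 lower and 0 higher at an unadjusted p below 0.05). Of all IDs tested, 24.9% were still called in that fit, against 49.4% in the fit without Taoxi control 1. The median standard error over the 53 genes was 0.69 with this library and 0.14 without it. Their median difference was -0.42 in both fits, as Taoxi control 1 is in neither group compared. A fit of only the 6 Jinlan and Jinsha libraries called 28 lower and 9 higher.

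**Figure D3:**
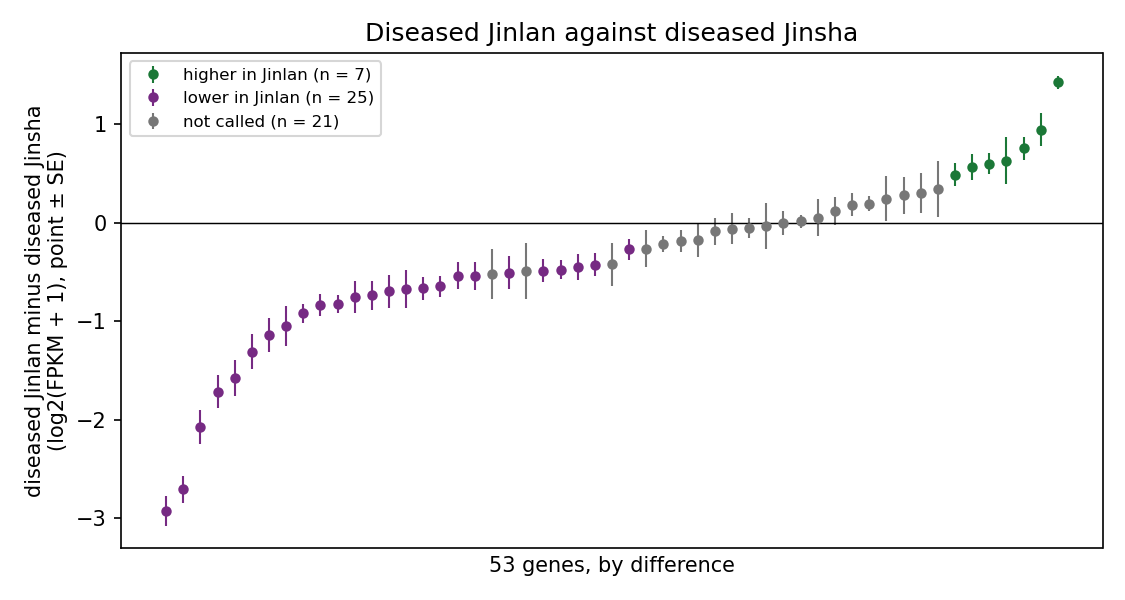
Difference of diseased Jinlan minus diseased Jinsha in log2(FPKM + 1), with its standard error from limma, for the 53 genes in rising order. The 25 genes called lower in Jinlan reach -2.93 and the 7 called higher reach 1.43, with the 21 not called between or among them.

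The largest differences below 0 were those of Cg2g044410 and Cg2g044400, whose ID numbers are 10 apart, the usual step between IDs in the file. Cg2g044410 had 19.1, 18.6 and 22.8 FPKM in diseased Jinlan against 125, 196 and 165 FPKM in diseased Jinsha. Its log2 difference was -2.93 ± 0.15 (SE, limma adjusted p = 3.57e-07). It had 1.49, 2.03 and 1.93 FPKM in diseased Taoxi and 1.81 and 2.39 FPKM in Taoxi controls 2 and 3. Cg2g044400, given above, differed by -2.71 ± 0.13 (SE, limma adjusted p = 2.66e-07). Both genes had their lowest Jinsha value in library 1 and their highest in library 2, and both kept their call with Taoxi control 1 in the fit (limma adjusted p = 0.00402 for Cg2g044410 and 0.0181 for Cg2g044400).

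The IDs on either side of this pair were not among the 53. Cg2g044390, before it, averaged 2.01 FPKM in diseased Jinlan, 2.04 in diseased Jinsha, 1.62 in diseased Taoxi and 2.45 in the Taoxi controls. Cg2g044420, after it, averaged 4.65 FPKM in diseased Jinlan, 4.14 in diseased Jinsha, 0.0546 in diseased Taoxi and 0.281 in the Taoxi controls. Cg2g044430, the next, averaged 9.20 FPKM in diseased Jinlan, 71.4 in diseased Jinsha, 1.76 in diseased Taoxi and 1.83 in the Taoxi controls. By group means, Cg2g044430 shared with the pair the order of Jinsha above Jinlan above both Taoxi groups. Cg2g044420 was higher in Jinlan than in Jinsha, and Cg2g044390 was highest in the Taoxi controls. Farther along, Cg2g044440, Cg2g044450 and Cg2g044460 were higher than diseased Taoxi by 2.96, 2.60 and 1.44 (log2, averaged over Jinlan and Jinsha). Before Cg2g044390, the IDs Cg2g044350 to Cg2g044380 ran from -0.38 to 1.26 on that measure. All these IDs were looked up after the values of the pair had been seen.

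Cg6g007890 and Cg2g019360 differed most in the opposite direction. Cg6g007890 had 116.9, 122.98 and 133.5 FPKM in diseased Jinlan against 44.4, 45.7 and 46.9 FPKM in diseased Jinsha, with 3.09, 3.59 and 3.60 FPKM in diseased Taoxi and 2.86 and 2.68 FPKM in Taoxi controls 2 and 3. Its log2 difference was 1.43 ± 0.07 (SE, limma adjusted p = 2.47e-07). Cg2g019360 had 27.4, 26.6 and 27.4 FPKM in diseased Jinlan against 13.6, 12.2 and 15.2 FPKM in diseased Jinsha, a log2 difference of 0.94 ± 0.17 (SE, limma adjusted p = 0.000904). It had 0.811, 1.54 and 1.90 FPKM in diseased Taoxi and 1.26 and 0.652 FPKM in controls 2 and 3. Neither was called with Taoxi control 1 in the fit. Cg3g008070 was likewise higher in Jinlan, by 0.76 ± 0.12 (SE, limma adjusted p = 0.000394), while Cg8g021200 was lower in Jinlan, by -0.83 ± 0.09 (SE, limma adjusted p = 3.08e-05).

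The smallest log2 difference between Jinlan and Jinsha in the limma fit was that of Cg5g029330, also the lowest of the 53 in level. It had 9.60, 10.6 and 9.80 FPKM in diseased Jinlan and 11.9, 9.03 and 9.32 FPKM in diseased Jinsha, a log2 difference of -0.002 ± 0.12 (SE, limma adjusted p = 0.994). In diseased Taoxi it had 0.535, 0.691 and 0.966 FPKM, and in controls 2 and 3 it had 0.692 and 0.566 FPKM. The overlap of the Jinlan and Jinsha libraries does not show that the cultivars hold this gene at the same level, only that a difference was not detected with 3 libraries each.

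Taoxi control 1, the library left out of the choice, had all 53 genes above the other 5 Taoxi libraries. Over all IDs tested this held for 42.7%. Its median level over the 53 genes was 27.5 FPKM, against 1.86 and 1.88 FPKM in Taoxi controls 2 and 3, and 34.7, 30.0 and 32.9 FPKM in diseased Jinlan. Gene by gene, it stood at 4.82 to 94.5 times the mean of controls 2 and 3, with a median of 14.4. On a scale of log2(FPKM + 1) where 0 is the mean of Taoxi controls 2 and 3 and 1 the diseased Jinlan mean, its median position was 0.91 (quartiles 0.86 and 0.97). The diseased Jinsha libraries had medians of 1.08 to 1.12 on this scale and the diseased Taoxi libraries 0.035 to 0.064. In FPKM it was 0.801 times the diseased Jinlan mean at the median (quartiles 0.692 and 0.944) and 0.701 times the diseased Jinsha mean (quartiles 0.497 and 0.928).

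Most of the 53 genes sat in a narrow band of this scale. In 37 genes the position was between 0.8 and 1, in 6 below 0.8 and in 10 above 1. Taoxi control 1 was below every diseased Jinlan library in 36 genes and above every one in 9 (17.0%). It was above every one in 27.5% of the other IDs tested at 9 FPKM or more in diseased Jinsha. For the count below, the share over other IDs was not taken. Among the 32 genes that separated the other cultivars by limma, Taoxi control 1 was nearer to Jinlan than to Jinsha in 23. These were 20 of the 25 genes lower in Jinlan and 3 of the 7 higher in Jinlan. The count of 23 thus rests mostly on genes in which Jinlan was the lower cultivar. How often this held over all IDs called was not counted. Of the 21 genes not called, Taoxi control 1 was nearer to Jinlan in 11. By the mirror rule, 93 genes were far lower in diseased Jinlan and Jinsha than in both Taoxi states. In all 93, Taoxi control 1 was below the other 5 Taoxi libraries, with a median position of 0.61 on the same scale (quartiles 0.57 and 0.70). The 93 were chosen by high values in those 5 libraries, and the share of all IDs with control 1 below them was not counted.

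**Figure D4:**
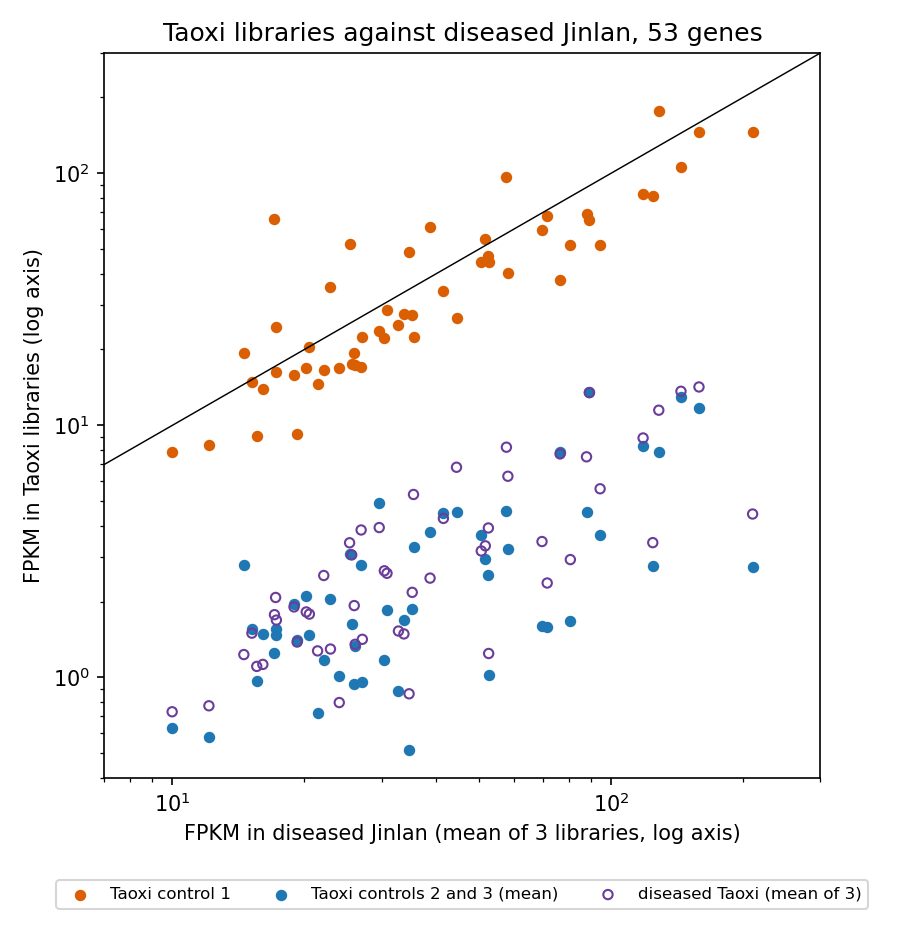
FPKM of the 53 genes in Taoxi libraries (vertical, log axis) against the diseased Jinlan mean (horizontal, log axis), with a line of equal values. Taoxi control 1 lies along the line, at a median of 0.801 times diseased Jinlan, while the mean of Taoxi controls 2 and 3 and the mean of diseased Taoxi lie far below it.

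The extremes of position were Cg5g030220 and Cg3g014780. Cg5g030220 had 9.23 FPKM in Taoxi control 1, against 1.51 and 1.31 FPKM in controls 2 and 3. It had 18.5, 19.9 and 19.3 FPKM in diseased Jinlan, 42.4, 30.4 and 24.96 FPKM in diseased Jinsha and 1.63, 0.963 and 1.55 FPKM in diseased Taoxi, which put control 1 at a position of 0.68. Cg3g014780 had 65.9 FPKM in Taoxi control 1, against 1.02 and 1.47 FPKM in controls 2 and 3. That was above every other library, with 16.5, 16.9 and 17.9 FPKM in diseased Jinlan, 21.5, 35.9 and 32.9 FPKM in diseased Jinsha and 1.87, 1.99 and 1.47 FPKM in diseased Taoxi, and the position was 1.63. Of the 9 genes with a position above 1.1, 7 were called lower in Jinlan than in Jinsha, 1 higher and 1 not at all. Over the 53 genes, 25 were called lower and 7 higher. The scale has the diseased Jinlan mean as its upper end, so the position and this call are not independent.

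Within diseased Jinlan, replicates of the 53 genes had a median coefficient of variation of 6.76%, near the 6.87% of the other IDs tested. In diseased Jinsha this median was 11.4%, above the 7.77% of the other IDs tested. In diseased Taoxi, where the genes are low, it was 23.3% (10.2% for the other IDs tested). Sets of genes shared deviations, and they were picked out after the values had been seen. In 5 genes diseased Jinlan 2 was at least 1.5-fold below the mean of the other Jinlan libraries. Cg3g010200 had 36.1, 22.5 and 39.7 FPKM in diseased Jinlan and 26.9, 31.0 and 22.8 FPKM in diseased Jinsha. Cg8g005540 had 91.3, 50.9 and 100.02 FPKM in diseased Jinlan and 61.2, 72.3 and 51.6 FPKM in diseased Jinsha. Cg5g017600, Cg5g024440 and Cg6g007590 were the other 3, and in all 5 Jinsha 2 was the highest and Jinsha 3 the lowest of its group. None of the 5 was called between Jinlan and Jinsha, and of all 53 genes 21 were not. The picking favoured a wide spread in Jinlan, which enters that test, so nothing is read from this. Their standard errors were 0.21 to 0.28, against a median of 0.14 over the 53 genes.

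This deviation was not confined to the 53 genes but was less common outside them. Jinlan 2 was at least 1.5-fold low in 5 of the 53 genes and in 1.36% of other IDs tested at 9 FPKM or more in diseased Jinlan. Of the 128 such IDs that were also at 9 FPKM or more in Jinsha, 108 (84.4%) had Jinsha 2 highest and Jinsha 3 lowest, where 20.04% of all other IDs at that level did. Their Jinsha 3 value was a median of 0.778 times the mean of the other Jinsha libraries.

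In another 4 of the 53 genes diseased Jinsha 1 was at least 1.5-fold below the mean of the other Jinsha libraries. They were Cg2g025410, Cg3g014780, Cg6g006850 and Cg7g006420. Among other IDs tested at 9 FPKM or more in diseased Jinsha, 56 of 9743 (0.575%) had Jinsha 1 as low. Cg2g025410 had 39.6, 38.9 and 37.6 FPKM in diseased Jinlan, 61.6, 94.7 and 109.9 FPKM in diseased Jinsha and 61.4 FPKM in Taoxi control 1. Cg6g006850 had 23.7, 21.9 and 23.2 FPKM in diseased Jinlan, 49.8, 82.8 and 83.9 FPKM in diseased Jinsha and 35.3 FPKM in Taoxi control 1. All 4 were called lower in Jinlan than in Jinsha, and in all 4 Taoxi control 1 exceeded every Jinlan library. Of the 56 other IDs with Jinsha 1 as low, 73.2% had Taoxi control 1 above every Jinlan library, where 27.5% of the other IDs at 9 FPKM or more in Jinsha did. Every Jinlan library was below every Jinsha library in 42.9% of the 56, and in 24.5% of those other IDs.

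**Figure D5:**
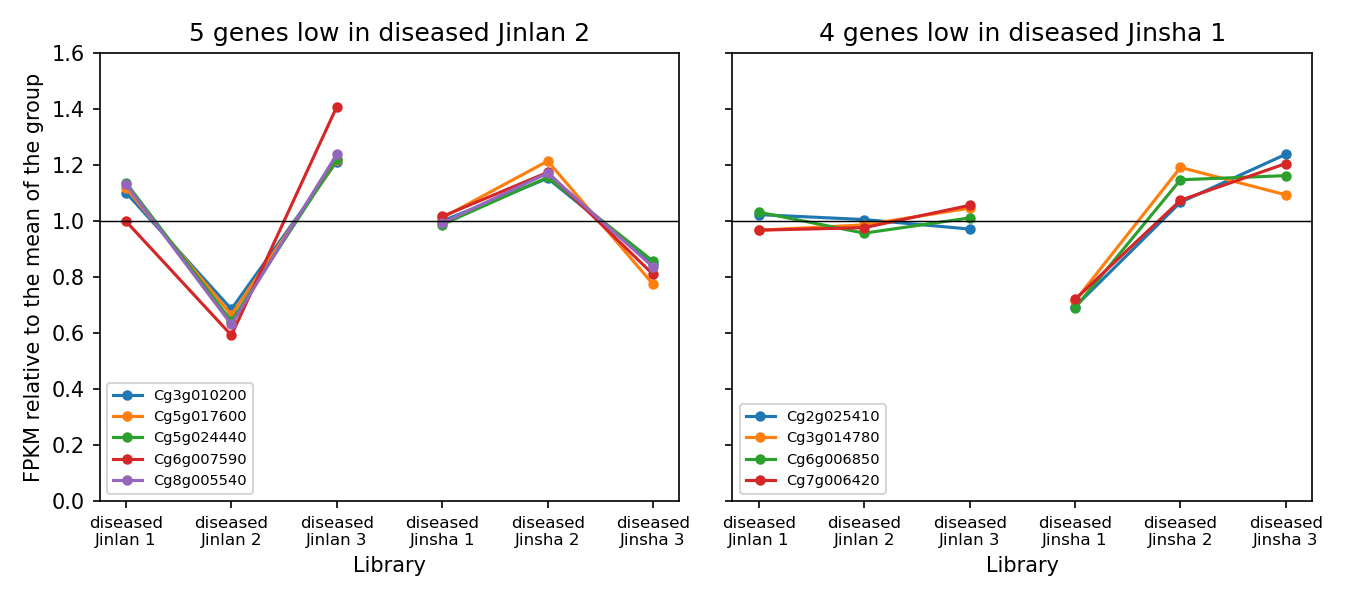
FPKM relative to the mean of the group in each diseased Jinlan and diseased Jinsha library, for the 5 genes low in diseased Jinlan 2 (left) and the 4 genes low in diseased Jinsha 1 (right). Lines join the libraries of a cultivar for legibility only. The genes were picked by their low Jinlan 2 values on the left and their low Jinsha 1 values on the right. The genes on the left also move together in Jinsha, which the picking did not use.

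The 53 genes carried IDs of all 9 numbered prefixes and of the unplaced prefix. Cg2g held 14 of them (26.4%, against 16.9% of the Cg IDs tested), Cg3g 7 (13.2% against 9.20%), Cg5g 6 (11.3% against 17.3%) and Cg8g 6 (11.3% against 7.82%), while Cg1g held 2 (3.77% against 9.79%). Cg2g044400 and Cg2g044410 were the only pair among the 53 with the next number, and 1 more pair, Cg3g010150 and Cg3g010200, lay within 50. ID numbers stand in for position here, since the file gives no coordinates.

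The IDs with neighbouring numbers were examined next. At the next number, 10 away, 64 IDs outside the 53 were tested, and 22 of them (34.4%) were higher by at least 1 log2 unit in Jinlan and Jinsha than in diseased Taoxi, averaged over both cultivars. Of all other Cg IDs tested, 10.5% were. Lower by as much were 4 of the 64 (6.25%), against 7.88% of the other Cg IDs. Within 50 of a number, 74 of 311 IDs (23.8%) were higher by at least 1 log2 unit. The 74 include Cg2g044420 to Cg2g044460, which follow the Cg2g044400 pair. The median difference was 0.29 at the next number, 0.24 within 50 and 0.10 over all other Cg IDs. These are counts without a test, as neighbouring IDs are not independent.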

How the data were processed

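RNA of pomelo fruit was measured in 12 libraries, purified with an RNeasy kit and made into libraries with a SMARTer mRNA-seq kit, per the labels' protocols. The authors deposited FPKM values for 32863 IDs. Not given in the sources used here are the aligner, the counter, the build and the annotation. Columns were matched to samples by title, and 6 columns that match no labelled sample were not analysed. Each library summed to between 560349 and 577783 FPKM. Low values showed no whole-read steps (at most 1.59% of IDs in 1 bin of the log2 ratio), so the depth is unknown.

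The genes and lists were chosen with earlier results of these data known. IDs at 1 FPKM or more in at least 3 libraries (17421) were tested on log2(FPKM + 1), which understates the change of low genes, with limma 3.58.1 in R 4.3.3 (trended empirical Bayes, 11 libraries in 4 groups, Taoxi control 1 left out, two-sided, Benjamini-Hochberg). The model was also run on simulated data with independent noise for each gene. That run does not cover deviations that genes share within a library. Same-numbered Jinlan and Jinsha libraries did not deviate together (r = 0.023, -0.16 and -0.063 across genes), so no pairing was used. Between differently numbered libraries r ran from -0.10 to 0.15, highest for Jinlan 2 with Jinsha 3. Genes were named by fixed ranks: the 2 highest, farthest from Taoxi and highest in Taoxi, 2 in each direction between Jinlan and Jinsha, the genes nearest the limit, the extremes of Taoxi control 1, neighbouring IDs and the gene with the smallest difference between Jinlan and Jinsha. Alternatives covered limits, pseudocounts, filters, scalings, libraries and a replicate block. Figures were drawn with matplotlib 3.10.9.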

Additional observations from a re-analysis of the deposited data

Results flagged for a closer look

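The library labelled Taoxi control 1 was left out of the tests except where a fit of all 12 libraries is named. Over the 53 genes its median fold over Taoxi controls 2 and 3 (their mean) was 14.4, and it was above both in all 53 genes. What sets this library apart from its label was not tested.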

How the results depend on the processing

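The number of genes was 53, and 124 with a difference limit of 2, 28 with 3, 97 with no minimum FPKM in Taoxi and 6 with Taoxi control 1 in the control mean. Leaving out any 1 of the 11 libraries gave 50 to 58. Between diseased Jinlan and Jinsha, 32 of the 53 genes were called, and 3 in a fit of all 12 libraries (3 lower and 0 higher in Jinlan), fits that differ only in Taoxi control 1. Of all IDs tested, 49.4% were called in the first of these fits and 24.9% in the fit of all 12 libraries. Leaving out any 1 library gave 28 to 34 calls (22 to 27 lower, 6 to 8 higher). The replicate block gave 32 calls, and 37 in the 6 Jinlan and Jinsha libraries alone, as many as without the block there. Within Taoxi 15 genes were called, 0 with Taoxi control 1 and 6 to 16 with 1 library left out, the 6 without Taoxi control 3. The median position of Taoxi control 1 was 0.91 and moved to 0.776 on the FPKM scale, 0.918 with a pseudocount of 0.1, 0.919 with median-ratio scaling, 0.866 with diseased Jinsha as the high end and 0.899 with diseased Taoxi as the low end. With median-ratio scaling 28.1% of IDs at the next number were higher by 1 log2 unit or more (9.01% of the other Cg IDs), and 33.9% without the IDs beside the Cg2g044400 pair. These 2 alternatives, and those of the Taoxi calls, were chosen after seeing the data. Depth is unknown and sets no stated limit.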
